A study of Drosophila melanogaster with 3 samples.

Results

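The regions described here were replicated but weak places of anti-GFP ChIP-seq signal in Drosophila melanogaster prepupae that carried CG6808 fused to eGFP. They lay below the cutoff of the authors' reproducibility-filtered list, and yet had a summit within 100 bp in the region list of every one of the 3 biological replicates. There were 3850 such regions, called members below. They made up 17.6% of the 21909 pooled regions below the cutoff and 12.8% of the 30000 regions of the pooled list. The list above the cutoff held 8091 regions, called IDR peaks. The remaining 18059 regions below the cutoff had no summit within 100 bp in at least 1 replicate. Members were thus selected on their pooled signal and on the match between replicates, so signal, rank and match are given as descriptions with no test.

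The study measured chromatin immunoprecipitation followed by sequencing in whole prepupae of pooled sex, with 3 biological replicates in 1 group and no second condition. All 3 came from a transgenic line that stably expressed the protein with a C-terminal GFP tag. The sample descriptions name an anti-GFP antibody, while the antibody field names CG6808. The stated age, 24 days, would be late for prepupae. The labels name no promoter for the transgene, so its level relative to the native gene is unknown, and whole animals mix all cell types, so the tissue of a binding event is unknown. Untagged or mock precipitations were not analysed here, and the 3 replicates share 1 control alignment.

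CG6808, named Zaf1 in the Release 6 annotation, encodes a zinc finger protein. Proteins of this kind read short DNA sequences, and many of them in flies sit at promoters and at the borders of chromatin domains. In ChIP-seq, sonicated fragments bound by the tagged protein are enriched, and the summit is the position of the most fragments. The irreproducible discovery rate (IDR) compares the ranks of regions between separate replicates to set a cutoff. Here the IDR peaks were the 8091 regions of highest pooled signal, at pooled ranks 1 to 8091. A region could therefore recur in all replicates and still rank too low in the pool to be kept. At prepupal stages the steroid hormone ecdysone drives metamorphosis, in which larval tissues die and adult structures form from imaginal discs.

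The sequences below show what a member looks like in different kinds of place. They are the members of highest pooled signal in a promoter, intergenic sequence and a coding exon among members clear of annotated UTRs on the arms used for sequence, followed by the promoter IDR peak of lowest signal for comparison. Each runs 100 bp to either side of the summit on the plus strand of the Release 6 genome (dm6), and capitals mark CACTG or its reverse complement CAGTG, a 5-base core that earlier analysis of these data found around IDR summits.
lncRNA:CR43838 promoter member, chrX:20760447-20760647: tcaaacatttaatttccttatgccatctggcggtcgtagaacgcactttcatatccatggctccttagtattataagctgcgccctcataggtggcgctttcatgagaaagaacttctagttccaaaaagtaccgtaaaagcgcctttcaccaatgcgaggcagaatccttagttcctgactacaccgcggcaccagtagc
mir-9388 intergenic member, chr3L:22943540-22943740: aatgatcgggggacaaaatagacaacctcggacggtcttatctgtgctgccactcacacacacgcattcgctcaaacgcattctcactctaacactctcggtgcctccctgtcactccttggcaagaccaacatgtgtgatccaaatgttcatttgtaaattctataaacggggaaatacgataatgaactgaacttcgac
dob coding exon member, chrX:15068587-15068787: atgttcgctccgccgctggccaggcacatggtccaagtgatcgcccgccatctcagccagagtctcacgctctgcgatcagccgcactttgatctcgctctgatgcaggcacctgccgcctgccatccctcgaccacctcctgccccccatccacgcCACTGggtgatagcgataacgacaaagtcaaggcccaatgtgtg
Got2 promoter IDR peak, chr2L:1986989-1987189: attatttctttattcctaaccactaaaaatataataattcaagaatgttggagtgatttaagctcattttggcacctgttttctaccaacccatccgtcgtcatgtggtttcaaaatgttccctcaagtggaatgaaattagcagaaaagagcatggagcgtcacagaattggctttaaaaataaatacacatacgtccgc
Of these windows, the one in the coding exon of dob, a gene for a lipase related to brummer, held the core, with its middle base 59 bp to the right of the summit. The other 2 member windows and the Got2 window held none. GC content was 46.3% at lncRNA:CR43838, 45.8% at mir-9388 and 61.7% at dob, against 35.8% at Got2.

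A pair of further windows was chosen after the values had been seen, because they carry sequence features described below. The first is the strongest member with a CACTG to the left of the summit and a CAGTG to the right, each 60 to 140 bp away, so that the cores face each other across the summit. It spans 291 bp, and its cores lay at -137 and 136 bp. The second is the strongest member with CCAGGAC, the 7-mer whose share exceeded that of IDR peaks by the highest odds ratio, and capitals mark that 7-mer in it, 96 bp to the left of the summit.
CG15059 intergenic member, chrX:18262157-18262447: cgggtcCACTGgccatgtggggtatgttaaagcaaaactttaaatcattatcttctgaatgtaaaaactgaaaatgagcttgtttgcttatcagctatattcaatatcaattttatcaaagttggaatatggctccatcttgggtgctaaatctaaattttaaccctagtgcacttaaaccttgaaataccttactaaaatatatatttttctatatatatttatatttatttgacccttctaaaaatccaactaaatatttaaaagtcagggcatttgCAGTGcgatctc
Ten-a intron member nearest to the moon TSS, chrX:12076325-12076525: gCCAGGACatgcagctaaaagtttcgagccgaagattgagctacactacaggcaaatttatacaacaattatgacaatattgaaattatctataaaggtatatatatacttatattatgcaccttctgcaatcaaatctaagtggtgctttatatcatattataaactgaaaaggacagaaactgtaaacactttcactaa
The CG15059 member had a pooled signal of 151, with 98.7, 24.3 and 30.5 in replicates 1, 2 and 3. The member in the Ten-a intron also had a pooled signal of 151, with 87.0, 25.3 and 41.1 in replicates 1, 2 and 3.

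The members were faint next to the IDR peaks. Their pooled signal, the authors' enrichment over control, ran from 38.5 to 152 with a median of 104, against a range of 152 to 24704 and a median of 285 in IDR peaks. The median of the deposited −log10 q-value was 1.51 in members and 4.12 in IDR peaks. In the replicates' own lists the median signal of members was 49.0, 24.4 and 26 in replicates 1, 2 and 3, while that of IDR peaks was 157, 71.3 and 72.6. The signal is not scaled between lists, so a replicate's value is read below against the members' median in the same replicate. Members had median ranks of 14615, 13447 and 13818 among the 30000 regions of replicates 1, 2 and 3, so they sat near the middle of each list. Few ranked high anywhere, with 162, 508 and 534 of them within the 8091 strongest regions of replicates 1, 2 and 3. Only 11 members (0.286%) reached that top in all 3 replicates, 149 did so in 2 replicates, 873 in 1 and 2817 in none.

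**Figure D1:**
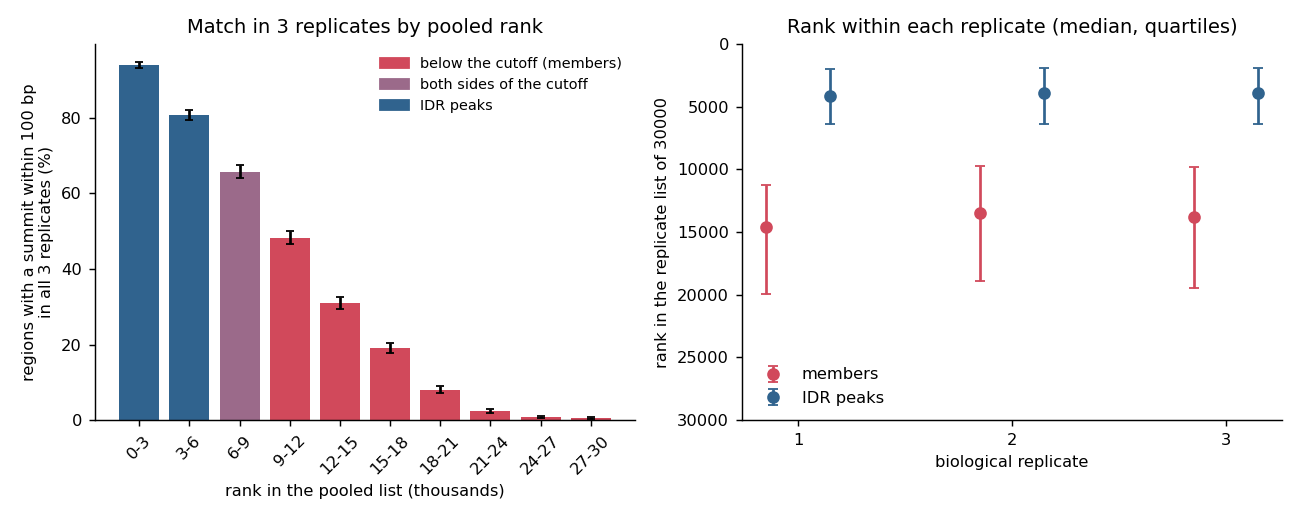
The left panel shows, for bins of 3000 ranks of the pooled list, the share of regions with a summit within 100 bp in all 3 replicates, with 95% Wilson intervals. The right panel shows the median rank and quartiles of matched regions in each replicate's list, with rank 1 at the top, for members and IDR peaks. The share matched was 94.0% in the first bin and 0.467% in the last, and members sat lower than IDR peaks in every replicate.

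Members were concentrated just below the cutoff. Of the regions at pooled ranks 9001 to 12000, 48.3% were members. The share was 30.9% at ranks 12001 to 15000, 19.1% at 15001 to 18000, 8.0% at 18001 to 21000 and 2.37% at 21001 to 24000. Above the cutoff, 94.0% of regions at ranks 1 to 3000 and 80.8% at ranks 3001 to 6000 matched in all 3 replicates, and in the bin that spans the cutoff 65.8% did. Leaving out replicate 1, 2 or 3 from the match gave 5538, 6952 and 6969 regions below the cutoff. The summits of members lay a median of 11, 30 and 20 bp from the nearest summit of replicates 1, 2 and 3, against 7, 20 and 16 bp for matched IDR peaks. The largest of the 3 distances was under 26 bp for 714 members and 76 to 100 bp for 960. At the limit of the rule, 378 members had a largest distance of 91 to 100 bp, and 354 regions just outside it had 101 to 110 bp. Across members, the replicates ranked the signal loosely, with Spearman rank correlations of 0.239 between replicates 1 and 2, 0.206 between 1 and 3 and 0.158 between 2 and 3 (3850 regions that share a control and a narrow range of signal).

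Members directly under the cutoff differed in their ranks in the replicates' lists. A member at the promoter of CG34457 (chr2R:16669914-16670383) had a pooled signal of 152.3 and replicate signals of 76.2, 46.8 and 25.3, which placed it at ranks 9457, 6313 and 14354 of replicates 1, 2 and 3. Its rank was better than the members' median in replicates 1 and 2 and worse in replicate 3. The intergenic member near mir-9388, a microRNA gene, had 82.0, 26.9 and 46.4, at ranks 8725, 11976 and 6682. An intronic member of Bacc had 222, 59.9 and 15, at ranks 2679, 4826 and 28396, the widest spread of the 3. Other members among the 20 of highest pooled signal lay nearest to drd, ITP (the ion transport peptide gene), CG13917, lncRNA:CR43838, psq (a BTB domain transcription factor), lncRNA:CR44183, CG43188, Pde9 (a cyclic nucleotide phosphodiesterase), T48, asRNA:CR44992, Boh2, CG1273, CG43658, lncRNA:CR46535, lncRNA:CR46041 and AhcyL1. Their pooled signals ran from 152.2 at drd to 151.7 at AhcyL1. The IDR peak just above the cutoff that matched in all 3 replicates lay in an intron near shf, at 152.40.

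Members lay at promoters less often than IDR peaks did. A promoter summit, one at most 500 bp from a transcription start site (TSS), was found for 713 members (18.5%, 95% Wilson interval 17.3 to 19.8%), against 35.3% of IDR peaks (34.3 to 36.4%). The difference was -16.8 percentage points, with a 95% Newcombe interval of -18.4 to -15.2 that covers counting error only. At the replicates' own summits the promoter share of members was 18.6%, 18.8% and 18.6%, against 35.2%, 34.2% and 33.8% for IDR peaks. Taken within each replicate the difference averaged -15.8 ± 0.707 points (SD, n = 3 replicates). Here and below, the replicates' own summits are those within 100 bp of the pooled summits, so their shares are not independent of the pooled ones. The SD covers shifts of the summit within that limit. The same regions recur in all 3 replicates, so no test was made over replicates. Against the weakest quartile of IDR peaks, whose median signal was 173, the difference was still -13.7 points (-16.1 to -11.4). Promoter windows take up 13.6% of the assembled arms.

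The share that members lacked at promoters lay in introns and between genes. Introns held 49.7% of member summits and 43.7% of IDR summits, a difference of 5.95 points (4.03 to 7.86). Intergenic sequence held 26.2% of member summits and 17.5% of IDR summits, a difference of 8.70 points (7.09 to 10.3). Introns take up 39.5% of the arms and intergenic sequence 27.2%. The other regions below the cutoff had 47.8% of summits in introns and 25.8% in intergenic sequence. Members exceeded them by 1.85 points (0.107 to 3.58) and 0.391 points (-1.12 to 1.94), so the intergenic share was not particular to members. Coding exons held 62 member summits (1.61%) against 0.606% of IDR summits, a difference of 1.00 point (0.603 to 1.48), although they take up 13.9% of the arms. Against the weakest quartile of IDR peaks, of which 1.53% were in coding exons, that difference was 0.0773 points and its interval, -0.649 to 0.713, held 0. The shares in 3' UTRs were 1.53% of members and 0.840% of IDR peaks, a difference of 0.692 points (0.283 to 1.17), and against the weakest quartile it was 0.494 points, with an interval of -0.149 to 1.06 that held 0. For 5' UTRs and other exons the interval of the difference held 0. At the replicates' own summits the members' intron, intergenic and coding exon shares each lay above all 3 IDR values, by means of 5.22 ± 0.522, 8.41 ± 0.242 and 1.00 ± 0.0897 points (SD, n = 3 replicates). As with promoters, these values follow the pooled shares and are not separate support for them.

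**Figure D2:**
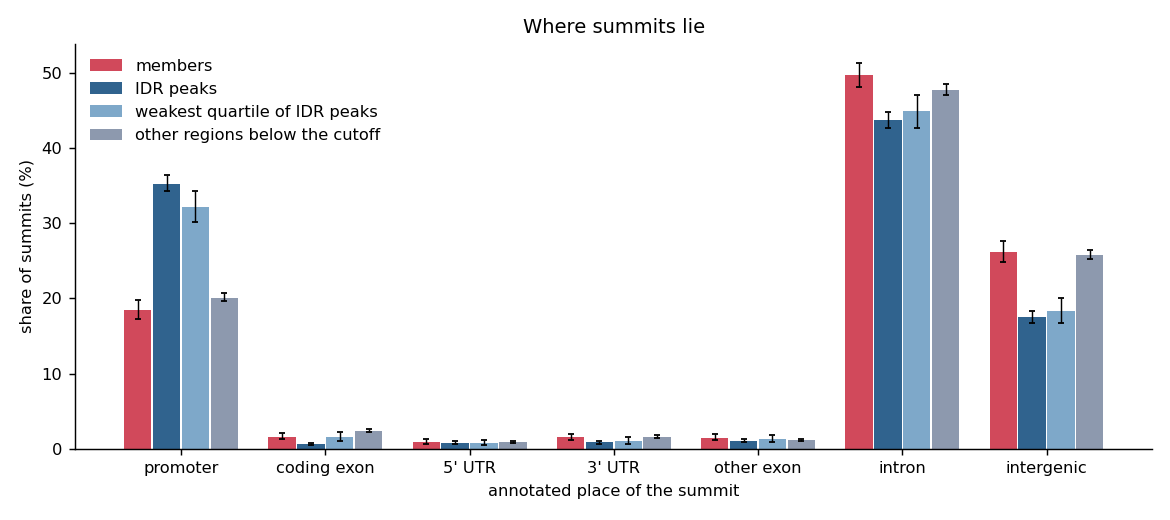
Bars give the share of summits in each annotated place, with 95% Wilson intervals, for 3850 members, 8091 IDR peaks, the weakest quartile of IDR peaks and the 18059 other regions below the cutoff. Members stand at 18.5% in promoters against 35.3% for IDR peaks, and above them in introns and intergenic sequence.

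Promoter members differed from promoter IDR peaks in which starts they marked. A TSS of a protein-coding gene lay within 500 bp for 84.4% of promoter members and for 90.7% of promoter IDR peaks, a difference of -6.27 points (-9.29 to -3.55). The remaining 15.6% of promoter members were at starts of other genes only, such as non-coding RNA genes. A tRNA gene start was within reach of 11 promoter members (1.54%) and 25 promoter IDR peaks (0.874%), with an interval of the difference of -0.126 to 1.90 points. Summits upstream of the TSS made up 59.0% of promoter members and 65.3% of promoter IDR peaks, a difference of -6.23 points (-10.3 to -2.27), and the median offset was -49.0 bp against -79.5 bp.

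Match by place is given as a description, since the rule used the match. Among the 6909 regions at ranks 8092 to 15000, 31.7% of promoter regions and 46.3% of regions elsewhere were members, a difference of -14.6 points. In replicate 1, 86.2% of promoter regions and 88.2% of regions elsewhere had a match. In replicate 2 these shares were 60.9% and 71.7%, and in replicate 3 they were 59.6% and 72.4%. Among IDR peaks 77.6% of promoter regions and 85.0% of regions elsewhere matched in all 3. With a limit of 250 bp in place of 100 bp the shares at ranks 8092 to 15000 were 61.3% at promoters and 74.8% elsewhere. The part of summit position, signal and depth in this difference was not tested.

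Set against regions of like rank, members held fewer promoters than the regions that did not match in all 3 replicates. At like rank these sets differ by the match that the rule used. The comparison thus restates the match by place above and is likewise a description. At ranks 9001 to 12000 the promoter share was 20.6% in members and 34.8% in the others, a difference of -14.1 points (-17.3 to -11.0). It was 15.7% against 27.1% at ranks 12001 to 15000 (-11.4 points, -14.3 to -8.28) and 14.7% against 22.2% at ranks 15001 to 18000 (-7.55 points, -10.7 to -4.03). Over all ranks below the cutoff, where the others have a lower median signal of 57.4, the shares were 18.5% and 20.1%, a difference of -1.62 points (-2.95 to -0.235). That small pooled difference turned to 1.99 points (0.902 to 3.09) when matching was allowed to 250 bp. It also turned to 1.06 points (-0.0744 to 2.21) without replicate 3, and was -0.407 points (-1.53 to 0.734) without replicate 2.

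**Figure D3:**
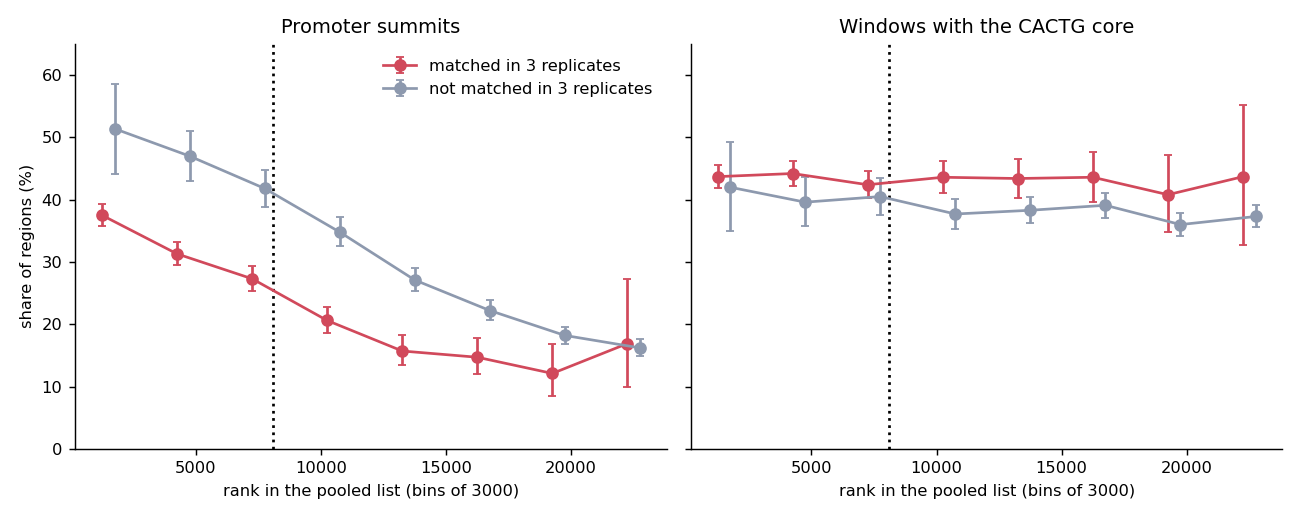
Each point is the share of regions at a promoter (left) or with the CACTG core within 100 bp of the summit (right) in a bin of 3000 pooled ranks up to rank 24000, with 95% Wilson intervals, for regions matched in all 3 replicates and for those not. The dotted line marks the IDR cutoff, and matched regions to the right of it are the members. At ranks 9001 to 12000 matched regions stand at 20.6% against 34.8% for promoters and at 43.6% against 37.7% for the core.

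The share of members with the core CACTG differed from that of IDR peaks by less than counting error, and was above that of the other regions below the cutoff. Of the members, 1644 (42.7%, 41.1 to 44.3%) held CACTG or CAGTG within 100 bp of the summit, against 43.4% of IDR peaks, a difference of -0.717 points with an interval of -2.61 to 1.19. Among the other regions below the cutoff the share was 36.6%, so that members exceeded it by 6.12 points (4.41 to 7.83). Leaving out replicate 1, 2 or 3, so that a match in the other 2 was enough, gave an excess of 4.87, 4.59 and 3.71 points. Members were also above regions of like rank. The excess was 5.95 points (2.44 to 9.45) at ranks 9001 to 12000 and 5.15 points (1.36 to 8.97) at 12001 to 15000. At ranks 15001 to 18000 it was 4.57 points (0.112 to 9.09). As with promoters, sets of like rank differ by the match that the rule used, so this is a description. Base composition moved with these sets, as the median GC content of windows was 40.8% in members, 37.3% in IDR peaks and 43.3% in the others. Within tertiles of GC content members exceeded the others by 8.70 points (6.0 to 11.4) in the lowest tertile, 6.0 points (2.98 to 9.06) in the middle tertile and 2.87 points (-0.348 to 6.14) in the highest, where the interval held 0. The share of regions with the core was 36.7%, 35.4%, 37.8% and 42.7% for regions below the cutoff matched in 0, 1, 2 and 3 replicates.

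The comparison with IDR peaks depended on the window. Within 50 bp of the summit the difference, members minus IDR peaks, was 2.45 points (0.884 to 4.05), and within 150 bp it was -3.64 points (-5.54 to -1.73). At the replicates' own summits it was lower in members, at 41.9%, 42.3% and 41.8% against 43.8%, 44.3% and 44.2%, a mean difference of -2.07 ± 0.329 points (SD, n = 3 replicates). Regions that only had to match in the other 2 replicates gave differences from IDR peaks of -2.12 points without replicate 1, -2.62 without replicate 2 and -3.23 without replicate 3, and each of these intervals excluded 0. The cores also lay differently around the summit. Members carried 2.78 copies per kb at 60 to 140 bp from the summit and 2.53 within 30 bp, a ratio of centre to flank of 0.911. IDR peaks carried 3.43 copies per kb at 60 to 140 bp and 2.21 within 30 bp, a ratio of 0.644. The other regions below the cutoff had 2.29 and 2.38 copies per kb, a ratio of 1.04. At 60 to 140 bp the density in members was 1.34 times that at 200 to 290 bp, against 1.57 in IDR peaks and 1.16 in the other regions.

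**Figure D4:**
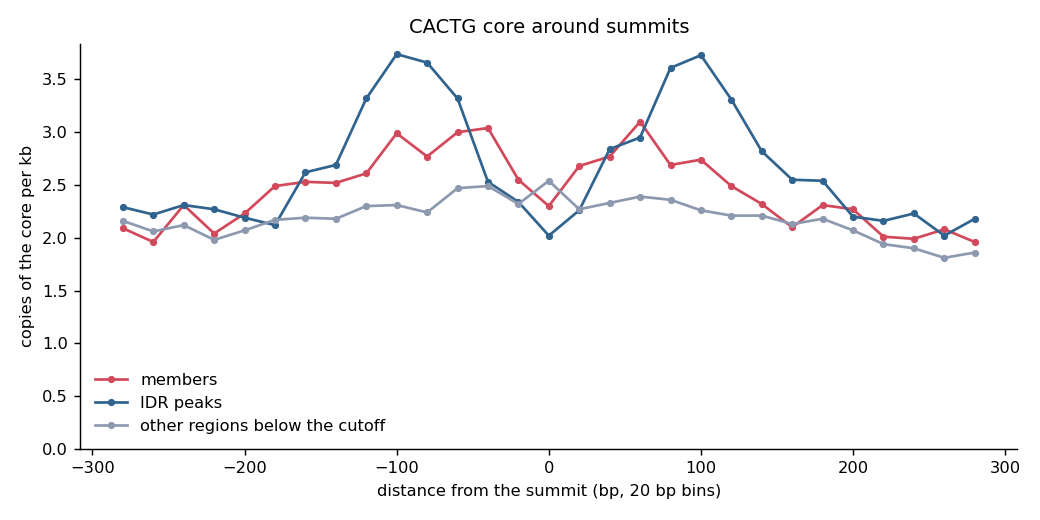
Lines give copies of CACTG or CAGTG per kb in bins of 20 bp around the summit, on the vertical axis from 0, for members, IDR peaks and the other regions below the cutoff. IDR peaks have a maximum on either side of the summit, and averaged over 60 to 140 bp members lie between them and the other regions, with 2.78 copies per kb against 3.43 and 2.29.

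The flanking cores of members faced inward more often than outward. Of the 1734 copies at 60 to 140 bp from member summits, 974 (56.2%, 53.8 to 58.5%) faced inward, that is, they read CACTG when left of the summit or CAGTG when right of it. The share was 57.0% (55.5 to 58.4%) in IDR peaks and 52.7% (51.5 to 53.9%) in the other regions. An inward-facing pair, one core on each side as in the CG15059 window, was found around 84 member summits (2.18%, 1.77 to 2.69%). This was below the 3.78% of IDR peaks, a difference of -1.60 points (-2.20 to -0.955), and above the 1.10% of the other regions, a difference of 1.08 points (0.633 to 1.61). At promoters alone the core was found in 41.5% of promoter members and 42.3% of promoter IDR peaks, with an interval of the difference of -4.76 to 3.31 points.

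All 7-mers, each taken with its reverse complement, were compared by a two-sided Fisher's exact test, with p-values adjusted by the Benjamini-Hochberg method over all 7-mers. Between members and the other regions below the cutoff, a comparison added after the data were seen, 80 7-mers were higher in members (0.977% of those tested) and 12 lower (0.146%), and 9 of the 80 held the core. CACAGTG was in 5.71% of members and 3.59% of the others (odds ratio 1.63, Fisher's exact test, adjusted p = 1.32e-05), and in 6.45% of IDR peaks. CAGTGCA was in 8.52% of members and 6.04% of the others (odds ratio 1.45, Fisher's exact test, adjusted p = 4.34e-05). Within 5 strata of GC content, 7 7-mers were higher and 1 lower, and 4 of the 7 held the core, namely CACAGTG (odds ratio within strata 1.64), CAGTGCA (1.39), ACAGTGG (1.42) and CACTGAG (1.46). The other 3 were GGTGCAC, at 2.88% of members and 1.68% of the others, CGGTGCA and GAGAAAA. Within 5 strata of pooled rank, 6 were higher and 1 lower, and 2 of the 6 held the core, CAGTGCA (odds ratio 1.38) and CACTGAG (1.59). Those without the core were GGTGCAC (1.76), TCTTAAA (1.48), ATTCAAA (1.40) and TATTTAA (1.34). CACAGTG and ACAGTGG were not called within strata of rank. With no strata, 92 7-mers were called, and leaving out replicate 1, 2 or 3 gave 35, 13 and 187 calls. These 7-mers overlap one another and are not independent sequences, and those called for the core contain its letters. Both sets lie below the cutoff and were told apart by the match, so the calls describe matched against unmatched regions.

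Between members and IDR peaks more 7-mers differed, and far fewer once GC content was held alike. There were 250 7-mers lower in members (3.05% of those tested) and 340 higher (4.15%), and of all these 1, higher in members, held the core. Within 5 strata of GC content 28 were lower and 17 higher. Against the weakest quartile of IDR peaks 0 were called by Fisher's exact test, with 261 lower and 251 higher at an unadjusted p under 0.05. That quartile has 2022 regions against 8091, which gives the test less power, so 0 calls do not show that the sequences are alike. With a match in 2 replicates only, which makes larger sets, 1398, 1845 and 1337 were called when replicate 1, 2 or 3 was left out. Among those calls 9, 12 and 11 7-mers with the core were lower in members, and 3, 4 and 1 were higher. The lowest odds ratios were those of ACCCTAC (0.386), ACGATAG (0.434), AGATTAG (0.452), ACTACCT (0.469) and ACAGTCC (0.497). The highest were those of CCAGGAC (3.70), CAGGACC (3.34), CCCCCGG (2.83), CCCCGGG (2.70) and CGAGGAC (2.62). CCAGGAC, shown above in the Ten-a window, was in 51 members (1.32%) and 0.358% of IDR peaks (Fisher's exact test, adjusted p = 5.35e-06), and its odds ratio within GC strata was 3.22. It was in 0.396% of the weakest quartile of IDR peaks. It was also in 1.43% of the other regions below the cutoff, so it was rare in IDR peaks and not particular to members.

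Letters read by several promoter factors were rarer in members than in IDR peaks. The DRE, TATCGATA, bound by DREF at promoters of growth and replication genes, was in 16 members (0.416%) against 1.26% of IDR peaks, a difference of -0.845 points (-1.16 to -0.505). Motif 1, GGTCACAC, bound by M1BP at housekeeping promoters, was in 0.468% against 1.12%, a difference of -0.657 points (-0.964 to -0.316). CGATA, the core read by the insulator protein BEAF-32, which is also contained in the DRE, was in 19.2% against 22.3%, a difference of -3.09 points (-4.61 to -1.53). The TATA box letters TATAAA were in 25.4% against 30.5%, a difference of -5.18 points (-6.86 to -3.46), and against the weakest quartile of IDR peaks the difference was -1.26 points (-3.64 to 1.09). Within promoters alone the DRE was in 1.40% of members and 3.08% of IDR peaks, a difference of -1.67 points (-2.62 to -0.381), while for Motif 1 and the BEAF-32 core the interval held 0 there. The difference for TATAAA was -6.41 points (-9.77 to -2.81) at promoters and -5.44 points (-7.41 to -3.44) elsewhere. Against the other regions below the cutoff, the intervals for the DRE, Motif 1 and CGATA held 0. TATAAA was higher in members than in those regions, by 3.87 points (2.39 to 5.39). GAGAG, read by GAGA factor, was in 26.9% of members and 27.9% of IDR peaks, with an interval of the difference of -2.68 to 0.733 points. For the other 8 letter patterns searched, among them E-boxes, the Ftz-F1 site and the STAT site, the interval of the difference from IDR peaks held 0. A match is a run of letters on either strand and does not show that a factor is bound.

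Members lay nearer to IDR peaks than the other regions below the cutoff did, and farther from them than IDR peaks lay from each other. An IDR summit was within 1 kb of 25.9% of members (24.5 to 27.3%), against 18.3% of the other regions below the cutoff, and within 5 kb of 64.5% against 57.6%. Another IDR summit was within 1 kb of 36.4% of IDR peaks (35.3 to 37.4%), within 5 kb of 76.8% and within 250 bp of 19%. The median distance was 2722 bp for members and 3662 bp for the others. There were 471 members (12.2%) within 250 bp of an IDR summit, of which 314 lay at 201 to 220 bp, and the nearest of all lay 199 bp away. Whether these are shoulders of the IDR peak was not tested. Without members that had an IDR summit within 500 bp, 3326 were left and the promoter difference from IDR peaks was -18.3 points (-20.0 to -16.7). Of 2474 members inside a protein-coding gene, 2008 (81.2%) were in a gene that also held an IDR peak, against 75.7% of the others, a difference of 5.49 points (3.72 to 7.17).

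Some long genes held many members, mostly in introns. The genes named here were ranked by count and not by density, and some shorter genes held more members per length. For example, chic held 4 members over 8.90 kb, or 4.49 per 10 kb. kirre, an immunoglobulin-family adhesion gene of muscle founder cells, held 17 members with pooled signals of 61.5 to 151 and 33 IDR peaks over 394 kb (chrX:2740384-3134532). Ten-a, a teneurin gene of synapse partner matching, held 16 members and 9 IDR peaks over 292 kb (chrX:12043698-12335214). Per length, members in Ten-a came to 0.549 per 10 kb against 0.309 IDR peaks per 10 kb, while in kirre they came to 0.431 against 0.837. heca (headcase, a regulator of imaginal cells) held 14 members and 15 IDR peaks, and Tet, a dioxygenase gene that acts on modified bases, held 13 and 27. cv-c held 13 members and 12 IDR peaks. CG43658 held 12 members and 22 IDR peaks. mub, SKIP, jing and hth (homothorax, a homeodomain partner of Exd and Hox proteins) held 11 members each, with 10, 19, 17 and 17 IDR peaks. In all, 1317 genes held at least 1 of the 3850 members, against 2162 genes that held at least 1 of the 8091 IDR peaks. There were 278 genes with 3 or more members.

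A member summit lay within 500 bp of a TSS of 629 of 13945 protein-coding genes, which is 4.51%, against 2519 genes (18.1%) for IDR summits. Of all protein-coding genes, 391 (2.80%) had a member summit and no IDR summit, and 238 had both, which is 37.8% of the genes reached by members and 9.45% of those reached by IDR peaks. Leaving out replicate 1, 2 or 3 gave 556, 690 and 787 genes with a member summit alone. Divergent genes, whose start lies head to head with another within 1000 bp, were reached by members in 4.12% of cases against 4.73% of other genes, a difference of -0.617 points (-1.31 to 0.103). IDR peaks reached 24.5% of divergent genes against 14.4% of other genes, a difference with an interval of 8.65 to 11.4 points. Reaching a start does not show that the gene is regulated.

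Among gene lists, those of patterning, EGFR signalling, ecdysone response and muscle had the highest shares reached by members, against 4.51% of all genes. Of 47 patterning and disc selector genes, 11 (23.4%) had a member summit, and 8 of these had no IDR summit, against 17 with an IDR summit. Members reached 6 of 32 genes of Ras, EGFR and MAPK signalling (18.8%), 4 of them without an IDR summit, and IDR peaks reached 12. Members reached 6 of 32 ecdysone response regulators (18.8%), 3 of them without an IDR summit, and IDR peaks reached 18. Of 28 muscle genes members reached 5, of which 1 had no IDR summit, and IDR peaks reached 6. In this order, IDR peaks reached 36.2%, 37.5%, 56.2% and 21.4% of these lists, against 18.1% of all protein-coding genes. Shares above that of all genes were thus not particular to members. Of 89 genes for cytosolic ribosomal proteins, members reached 3 (3.37%), against 60 (67.4%) for IDR peaks. Of 87 oxidative phosphorylation genes members reached 1, against 9 for IDR peaks, and of 34 proteasome genes 0, against 2. Members and IDR peaks both reached 0 of 179 chemoreceptor genes, and members reached 0 of 23 autophagy genes, 0 of 21 genes for insulator proteins and 0 of 16 ZAD zinc finger genes, against 9, 4 and 1 for IDR peaks. Of the remaining lists, members reached 4 of 39 Polycomb, trithorax and remodelling genes, 2 of 21 chaperone genes, 3 of 32 insulin and TOR genes, 3 of 36 translation factor genes and 2 of 48 neuronal genes. They reached 2 of 73 genes for mitochondrial ribosomal proteins, 1 of 38 replication and cell cycle genes, 1 of 19 cell death genes and 1 of 16 ecdysone synthesis genes. These lists were chosen with earlier results known and are described by their counts, without a test.

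**Figure D5:**
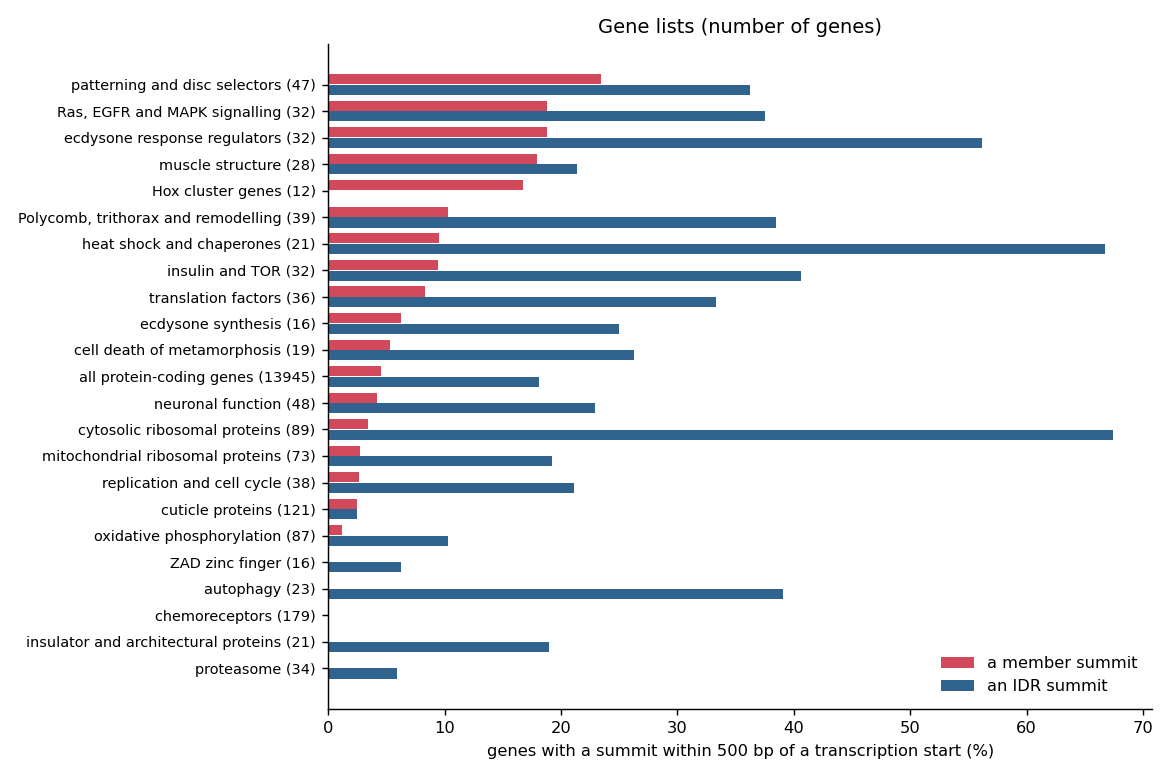
Bars give the share of genes in each list with a member summit (upper bar) or an IDR summit (lower bar) within 500 bp of a TSS, with the number of genes in brackets, ordered by the share for members. All protein-coding genes stand at 4.51% for members and 18.1% for IDR peaks, and ribosomal protein genes at 3.37% and 67.4%.

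Among patterning genes reached by members only, Dr, which encodes the homeodomain protein Drop, had the strongest member (chr3R:29556039-29556508). Its summit lay at -112 bp from the TSS, and its signal was 147 in the pooled list and 70.3, 34.9 and 32.8 in replicates 1, 2 and 3. All 3 replicate values were above the members' median in their list. Dsor1, the fly MAP kinase kinase gene, had a pooled signal of 147 and replicate signals of 109, 25.5 and 23 (chrX:9247058-9247527). The summit lay at -49 bp from the Dsor1 TSS and at 43 bp from a TSS of amx, so this member was shared by both genes. Its signal was above the members' median in replicates 1 and 2 and below it in replicate 3. Of the 12 genes in the Hox clusters, members reached 2 within 500 bp of a TSS, and IDR peaks 0. These were bcd, the anterior morphogen gene, with a pooled signal of 96.6 and replicate signals of 31.6, 15.7 and 28.6 (chr3R:6759408-6759877), and Antp, the Hox gene of the thorax, with 80.9 and replicate signals of 30.2, 18.0 and 25.7 (chr3R:6932911-6933380). Both of these members had a pooled signal below the members' median. Over its whole length Antp held 9 members, with pooled signals of 69.2 to 149, and 6 IDR peaks.

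Among ecdysone regulators, chinmo, a BTB zinc finger gene of juvenile cell identity, had a member 37 bp from its TSS with a pooled signal of 131 and replicate signals of 73.8, 24.0 and 42.4 (chr2L:1651060-1651529). Hr3, a nuclear receptor gene induced by ecdysone, had a pooled signal of 128 and replicate signals of 83.4, 25.4 and 23.9 (chr2R:10227912-10228381). sens, a zinc finger gene of sensory organ precursors placed in the list of ecdysone synthesis, had a pooled signal of 144 and replicate signals of 52.3, 29.5 and 48.7 (chr3L:13400984-13401453). The sens values were above the members' median in all 3 replicates, and those of Hr3 in replicates 1 and 2.

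In chromatin and signalling lists, Su(z)2, a Polycomb group gene related to Psc, had a member of pooled signal 148 with 89.4, 32.6 and 33.8 in the replicates (chr2R:12996923-12997392). Jarid2, a partner of Polycomb repressive complex PRC2, had 119 and replicate signals of 79.6, 24.7 and 27.1 (chr3L:9476816-9477285). raptor, a subunit gene of the growth kinase complex TORC1, had 100 and replicate signals of 67.7, 34.3 and 16.7. robo1, the Slit receptor gene of axon guidance, had 106, with 61.7, 20.2 and 34.3, and Zasp52, a muscle Z-disc gene, had 59.9, with 23.3, 14.5 and 26. Zasp52 had the lowest pooled signal of the genes named from these lists, and was below the members' median in replicates 1 and 2.

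Housekeeping lists had shares reached by members alone near or below the 2.80% of all protein-coding genes, apart from chaperones. A gene with an IDR summit cannot count here, which limits the share in lists rich in IDR summits. Such genes made up 67.4% of cytosolic ribosomal protein genes and 66.7% of chaperones, against 18.1% of all protein-coding genes. A low share thus does not show that members avoided a list. The shares reached by members alone were 1.12% of cytosolic ribosomal protein genes, 1.15% of oxidative phosphorylation genes, 2.63% of replication and cell cycle genes, 2.74% of mitochondrial ribosomal protein genes, 2.78% of translation factors and 4.76% of chaperones, each of them 1 or 2 genes. RpL40, which encodes a ubiquitin and ribosomal protein fusion, was the ribosomal protein gene (chr2L:4227610-4228079), with a pooled signal of 151 and replicate signals of 81, 24.1 and 44.3. eEF1delta, a translation elongation factor gene, had 144, with 52.4, 60.8 and 27.2, all above the members' median in their list. Hsp110, a chaperone gene, had 133, with 87.4, 27.6 and 25.6. mRpL34 and mRpS31, genes for mitochondrial ribosomal proteins, had pooled signals of 131 and 127. fzr, an activator of the anaphase-promoting complex, had 96.4, and COX7AL2, a cytochrome c oxidase subunit gene, had 78.3. The cuticle genes Cpr97Ea and Cpr12A had 141 and 104, and members reached 3 of 121 cuticle genes, against 3 for IDR peaks.

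The Zaf1 gene itself (chr3R:11621466-11625644, minus strand) held 0 members. Within 30 kb of it lay 12 regions below the cutoff, of which 2 were members, and both were nearest to Jupiter, a microtubule-associated protein gene. The nearer one lay in an intron 3325 bp from Zaf1, with a pooled signal of 127 and replicate signals of 57.2, 35.1 and 41.1. The other was at a Jupiter promoter 16438 bp away, with a pooled signal of 105 and replicate signals of 23.1, 17.2 and 20.9.

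The density of members was 31.8 per Mb on X and 28.4 per Mb on autosomes other than chromosome 4. The ratio was 1.12, against 1.10 in IDR peaks and 0.986 in the other regions below the cutoff. Chromosome 4 held 5 members, 22 IDR peaks and 67 of the other regions. Per Mb this was 3.71, 16.3 and 49.7, against 28.4, 59.8 and 136 on the other autosomes. A transposable element held 16 member summits (0.416%) and 13 IDR summits (0.161%), although such elements take up 5.93% of the arms. Of the members, 98.9% had the same width of 470 bp, against 57.6% of IDR peaks and 95.6% of the weakest quartile of IDR peaks.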

How the data were processed

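The deposited region lists of 3 anti-GFP ChIP-seq replicates and their pool were used on dm6, with the optimal IDR list. Per the deposited file headers, regions were called against 1 shared control alignment. Which aligner and peak caller were used is not stated in the sources, and the control alignment and coverage tracks were not analysed here. The signal column is the authors' enrichment per region and was compared within a list only. The deposited −log10 q-value was used to describe. Depth was unknown. Intervals cover counting error only, and regions are not replicates.

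Members had no summit in the IDR list and a summit within 100 bp in each of 3 lists of 30000. The members and the lists were chosen with earlier results of these data known. Places came from Ensembl release 115, with promoters (500 bp from a TSS) taken first, then exons by kind, then introns, and sequences from the Release 6 RefSeq genome. A difference was called where its 95% Newcombe interval excluded 0. The planned permutation test over replicates is not given, as the replicates share their regions. 7-mers within 100 bp were tested at a threshold of 0.05, with Mantel-Haenszel tests over 5 strata as alternatives. Of the list symbols, 10 were not matched. Named genes are nearest to the 20 strongest members, the 10 genes with most members, the 2 strongest genes reached by members only in each list, 5 7-mers at each end of the odds ratios, and Zaf1. Some items that the rule names are not reported here. CG15059, moon and the 7-mers compared with other regions below the cutoff were named after their values were seen. Procedures were tested on simulated data. Computations used scipy 1.17.1, pandas 2.3.3, numpy 2.4.6 and matplotlib 3.10.9 under Python 3.11.15.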

Additional observations from a re-analysis of the deposited data

How the results depend on the processing

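No paired analysis was possible because there is 1 group of samples to compare, and members and IDR peaks were set side by side within each replicate. The rule set the number of members, which was 1853 with a match within 50 bp, 8410 within 250 bp and 10518 with any overlap, 4051 on dm3, and 5538 to 6969 when a match in only 2 replicates was needed, the omitted one still being part of the pool. The nearest summits were mutual for all 3850 members. The promoter, intron and intergenic differences from IDR peaks kept their direction and call under every alternative run. The coding exon difference was 0.0773 points against the weakest quartile of IDR peaks. The core difference from IDR peaks was 2.45 points with a window of 50 bp and -3.64 with 150 bp, and -3.23 to -2.12 when a replicate was left out. Against the other regions it was 2.87 in the highest tertile of GC content. The promoter difference from those regions was -0.862 with a 250 bp promoter window, 1.99 with matching to 250 bp, and -2.14 to 1.06 when a replicate was left out. Genes reached only by members numbered 184 at 50 bp, 713 at 250 bp and 235 for members above their median signal, and 556 to 787 when a replicate was left out. Against IDR peaks 590 7-mers differed, 267 with a 50 bp window and 45 within GC strata. The count was 0 against the weakest quartile, a smaller set of 2022 regions, and 381 for members away from IDR peaks. It was 1337 to 1845 when a replicate was left out. Against the other regions 92 differed, 8 within GC strata, 7 within rank strata, and 13 to 187 when a replicate was left out. Leaving out a replicate enlarges the set, and the other causes were not tested.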
